A study of Drosophila melanogaster with 164 samples.

Results

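Acsf2 and Acsx4, 2 genes of the acyl-CoA synthetase family, were followed through larvae and adults of 41 inbred lines of Drosophila melanogaster. They are the genes of a count table of 7414 genes whose FlyBase symbol begins with Acsf or Acsx and a number. The annotation holds 7 genes that match this name pattern, and Acsf3, Acsx1L, Acsx1R, Acsx2 and Acsx3 were not analysed here. The lowest count in a library used here was 29 for Acsf2 and 23 for Acsx4. Acsf2 was chosen by its measured heritability in adults, which was among the highest of all genes, and the choice of Acsx4 may also have rested on its line values. Values by line are therefore given for both genes as a description, with no test, and the stage difference is tested.

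Acyl-CoA synthetases use ATP to join a fatty acid to coenzyme A, through an acyl-adenylate. The acyl-CoA that results can be burned by beta-oxidation in mitochondria or peroxisomes, lengthened, or built into storage and membrane lipids, and acyl-CoA binding proteins carry it between these routes. The enzymes belong to one superfamily with firefly luciferase. The human gene ACSF2 encodes a mitochondrial enzyme that activates medium-chain fatty acids. In flies, fat body, oenocytes, gut and muscle are the main sites of fatty acid use and synthesis.

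The lines come from the Drosophila Genetic Reference Panel (DGRP), wild-derived lines made nearly homozygous by inbreeding, and were picked without inversions and across a range of starvation resistance. The larvae were whole and not sexed, taken from the food once a first wandering larva had appeared in the vial, and the adults were whole flies frozen after 4 days of maturation, with no sex on their labels. All were reared on cornmeal-molasses-agar at 25°C, and no group carried a transgene or received a treatment. Each line had 2 replicates per stage, each a pool of 2 to 31 animals, with medians of 20 larvae and 17 adults. In such whole-body pools fewer cells of a type and less RNA per cell cannot be told apart. The p-values from edgeR measure the spread between these pools of animals, each library counted as separate. In the main fit that spread mixes replicates of a line with stage differences that vary by line. They therefore do not measure the spread of the stage difference over lines. Larval and adult libraries were sequenced in separate pools, so sequencing pool and stage cannot be told apart.

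Some larval libraries did not match their labels. The columns labelled DGRP787 replicate 1 and DGRP491 replicate 2 were identical and both were left out, which left 80 larval and 82 adult libraries, with 2407244 to 26429404 counts in larvae and 2748964 to 20421026 in adults. Over 307 genes with strong line differences in adults, Acsf2 and Acsx4 not among them, 77 of 82 larval columns had their highest r with adults of the line on their label. Of the 5 others, 1 was the DGRP787 column of the identical pair, with an r of 0.667 with adults of DGRP491 and 0.021 with its own. Another was DGRP367 replicate 1, which also had an r of 0.274 with its own adults. The libraries labelled DGRP897, DGRP911 and DGRP882 replicate 2 correlated with the adults of DGRP882 (r 0.726), DGRP897 (r 0.521) and DGRP911 (r 0.564), and with those of their own lines at 0.025, 0.0016 and -0.118. They were kept under their labels, and the larval results that moved without these 3 libraries, which leaves 77, are given both ways.

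Acsf2 (FBgn0031703) lies on chromosome 2L at 5339132 to 5342234, on the minus strand of the BDGP6 (dm6) build. Its annotated transcript has 3 exons that sum to 2054 bases, of which 179 are 5′ UTR and 93 are 3′ UTR, and encodes 593 residues. No other annotated gene overlaps it. On its 5′ side lie a Doc transposable element of the reference genome, 600 bases away, and the mechanosensory channel gene nompC, 3965 bases away. On its 3′ side fusl lies 1058 bases away. Acsx4 (FBgn0038734) lies on chromosome 3R at 19783522 to 19785519 on the plus strand, with 4 exons of 1831 bases in all, 96 of them 5′ UTR and 115 of them 3′ UTR, and 539 residues. It is the last of 5 Acsx genes that follow each other along 3R, with Acsx3 376 bases upstream on the same strand. How reads shared among these tandem genes were counted is not given in the sources used here, so the Acsx4 count is uncertain to that extent.

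Acsx4 was lower in adults than in larvae in every line, while the stages overlapped for Acsf2. Values are given as CPM, the count scaled to the same total in every library. In larvae Acsx4 had a median of 69.2 CPM (lowest 32.3, highest 116). In adults its median was 10.8 CPM (lowest 5.95, highest 24.7). The lowest larval library thus lay above the highest adult one, and the stages did not overlap. The mean over 80 larval libraries was 68.3 ± 15.4 CPM (SD, n = 80), and over adult libraries it was 11.4 ± 4.13 CPM (SD, n = 82). Adults were 7.31-fold lower, a log2 difference of -2.87 ± 0.06 (SE; adjusted p 6.6e-80) by the edgeR quasi-likelihood test with the Benjamini-Hochberg adjustment. It was lower in adults in 41 of 41 lines. Most genes differed between these stages: at an adjusted p under 0.05 the test called 47.8% of 7414 genes higher in larvae and 44.9% higher in adults. Acsx4 was the 87th of the 7414 genes from the most negative change, and its level among genes fell from the 69.4th percentile in larvae to the 7.70th in adults.

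In larvae Acsf2 had a median of 71.0 CPM (lowest 5.58, highest 166). In adults its median was 73.1 CPM (lowest 3.90, highest 120). The stages overlapped almost wholly, with 1 adult library below the lowest larval one and 0 above the highest. The larval mean was 74.5 ± 34.9 CPM (SD, n = 80), and the adult mean was 70.3 ± 18.1 CPM (SD, n = 82). In edgeR the log2 difference, adults minus larvae, was -0.28 ± 0.08 (SE; adjusted p 8.1e-04), and 5615 of the 7414 genes changed more. Without the 3 larval replicate 2 libraries that matched other lines it was -0.29 ± 0.06 (adjusted p 2.0e-05 in edgeR). The call was lost when library totals were used without TMM factors, the trimmed-mean scaling between libraries (-0.025 ± 0.080, adjusted p 0.768 in edgeR). It was also lost when sequencing pools rather than libraries were the replicates (-0.11 ± 0.16, adjusted p 0.509 in limma) and without replicate 1 (-0.25, adjusted p 0.0716 in edgeR). The fit on pools weighs each pool mean equally and does not account for line, so more than the replicate unit changed. Without the factors the median gene stood at 0.22 on the log2 scale instead of -0.03, and the calls were split into 4147 genes higher in adults and 2690 higher in larvae instead of 3332 and 3545. For Acsx4 the change without factors was -2.62 and it passed under each of these settings.

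The measured stage difference of Acsf2 was positive in some lines and negative in others, and its variation among lines was not tested. How many lines stood on each side depended on the scaling between libraries. Line means, their order and folds between lines or replicates are given on log2 CPM with TMM factors, unless plain CPM is named. On that scale line means were higher in larvae in 27 lines and in adults in 14, while on plain CPM they were higher in larvae in 20 and in adults in 21. With TMM factors all adult libraries lay below all larval ones in 23 lines and above them in 7, and without the 3 libraries in 24 and 7. At least 7 lines on each side were seen for 488 of the 7414 genes, or 6.58%. With at most 2 libraries a stage in a line, these counts do not show that the direction differs between lines, which was not tested. DGRP491 and DGRP787, both among the 23, had fewer larval libraries, since the identical columns were left out. Without the 3 libraries so had DGRP882, DGRP897 and DGRP911, and fewer libraries separate more easily. On plain CPM all adult libraries lay below all larval ones in 14 lines, which are among the 23. They lay above in 12, which include the 7. The 12 also include DGRP181, DGRP774 and DGRP801, which lay below with TMM factors. For Acsx4 all adult libraries lay below all larval ones in 41 of 41 lines on both scales. For Acsf2 in plain CPM, DGRP380 had 166 and 163 CPM in larvae and 73.0 and 80.7 in adults. DGRP362 had 21.1 and 39.1 CPM in larvae and 73.1 and 74.2 in adults. With TMM factors the adult minus larva difference of line means ran from -2.03 in DGRP897 to 2.13 in DGRP911 on the log2 scale, and both of these ends rest on replicate 2 libraries that matched other lines. Without those libraries DGRP897 was at -0.55 and DGRP911 at 0.61, and the ends were -1.25 in DGRP380 and 1.19 in DGRP362. The SD of this difference over lines was 0.73 for Acsf2, 0.58 without the 3 libraries, and 0.56 for Acsx4 in both cases. The differences of Acsx4 ran from -3.79 in DGRP235 to -1.60 in DGRP535.

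DGRP897 was far below all other lines for Acsf2 in adults. Its adult replicates had 29 and 37 counts, or 3.90 CPM (95% Poisson interval 2.61 to 5.60, counting error only) and 6.02 CPM (4.24 to 8.29). The next line, DGRP796, had 36.7 and 29.6 CPM. On line means DGRP897 stood 12.7-fold below the median line and 6.12-fold below DGRP796. A wider gap between the lowest line and the next was seen for 14 of the 7414 genes. In larvae, replicate 1 of DGRP897 had 75 counts, or 6.84 CPM (5.38 to 8.57), and the library labelled DGRP897 replicate 2 had 59.7 CPM. The library labelled DGRP911 replicate 2, which matched the adults of DGRP897 over the other genes, had 29 counts, or 5.58 CPM (3.74 to 8.01). Apart from these 2 low libraries, the lowest larval value was 21.1 CPM. DGRP911 replicate 1 had 48.7 CPM, and its adults had 68.2 and 77.0. The adults of DGRP897 were low for many genes: this line was the lowest of 41 for 796 of 7414 genes, against a median of 127 genes per line, and only DGRP142 was the lowest for more (892). Some tissue markers of this line stood apart as well: among adults of the 41 lines it was the 2nd lowest for the sum of testis markers, and it was 40th from the lowest for roX1, 39th for the nervous system and 37th for oenocytes. Others did not: it was 18th from the lowest for fat body, 19th for midgut, 10th for Malpighian tubule and 10th for muscle. The part of these tissues in its Acsf2 level was not tested. For Acsx4 the adults of DGRP897 had 13.0 and 19.5 CPM, the third highest line mean.

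**Figure D1:**
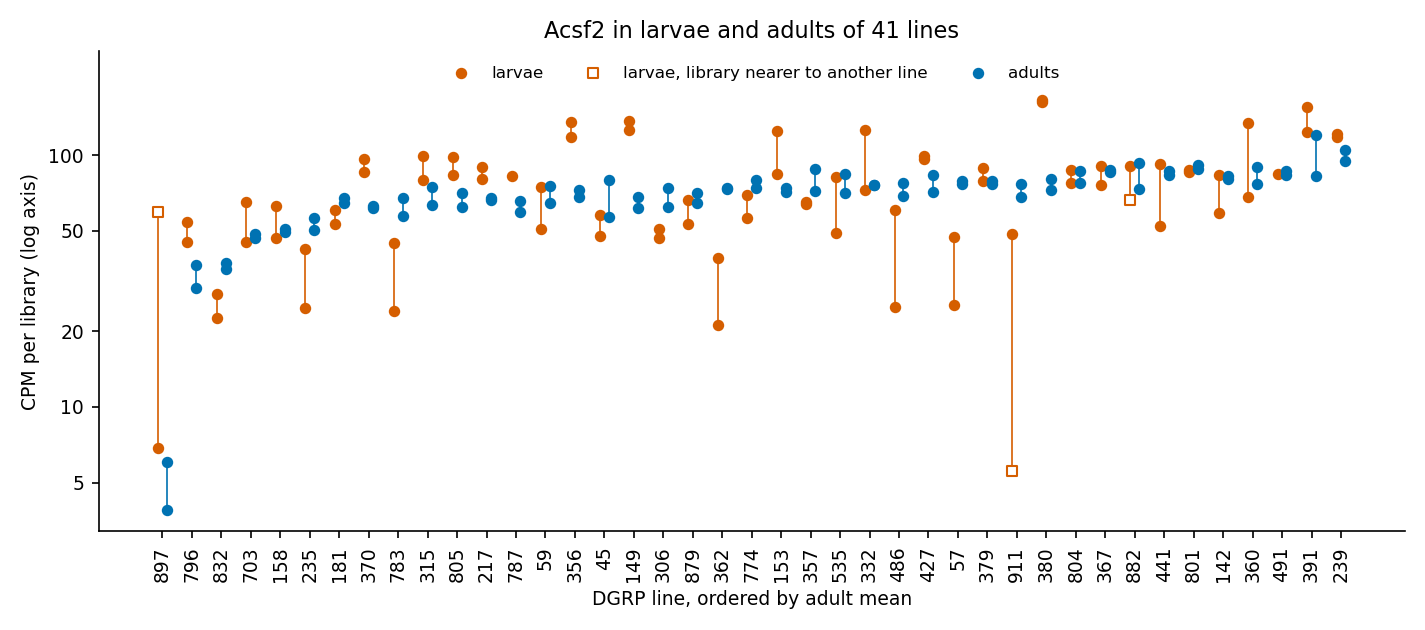
Acsf2 by library. The vertical axis is CPM on a log scale, the horizontal axis is the 41 lines in order of their adult mean, points are libraries (orange larvae, blue adults) and lines join replicates. Open squares are the 3 larval replicate 2 libraries that matched the adults of another line. The adults of DGRP897 sit at 3.90 and 6.02 CPM, and the low larval points are DGRP897 replicate 1 at 6.84 and the library labelled DGRP911 replicate 2 at 5.58.

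Over the remaining lines, Acsf2 varied more in larvae than in adults. Adult line means without DGRP897 spanned 2.83-fold, from DGRP796 to DGRP239, and over all 41 lines they spanned 17.3-fold. The highest adult values were those of DGRP239, with 105 and 94.4 CPM, and DGRP391, with 120 and 82.4. Larval line means spanned 10.4-fold over all 41 lines, from DGRP911 to DGRP380. The DGRP911 mean includes the library that matched the adults of DGRP897. Without the 3 libraries they spanned 22.8-fold, from DGRP897 to DGRP380, and 6.56-fold from the next lowest line, DGRP832. The larval order ended with DGRP149, DGRP391 and DGRP380. The median fold between the replicates of a line was 1.36 in larvae and 1.06 in adults. The largest in larvae were 8.18 in DGRP911, 7.75 in DGRP897 and 2.51 in DGRP486. Those of DGRP911 and DGRP897 each include a replicate 2 library that matched the adults of another line. In the order of line means, the replicates of neighbouring lines did not overlap in 4 of 40 neighbour pairs in adults and in 3 of 40 in larvae. In adults these were DGRP897 below DGRP796, DGRP832 below DGRP703, DGRP158 below DGRP235 and DGRP235 below DGRP181, so the order among the lines above DGRP181 did not separate any line from the next. In larvae the separate pairs were DGRP306 below DGRP796, DGRP491 below DGRP370 and DGRP391 below DGRP380. DGRP491 had a larval library left out as identical, so its pair does not compare replicates on both sides.

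Heritability, here the between-line part of the variance among single libraries, put Acsf2 at 0.956 ± 0.112 in adults (jackknife SE over 41 lines), the 4th highest of 7414 genes, whose median was 0.390. Without DGRP897 it was 0.843, the 183rd highest, so the rank rests in part on that line. The SD among lines was 0.64 log2 with DGRP897 and 0.31 without it, and the SD between replicates was 0.14 and 0.13. In larvae the heritability of Acsf2 was 0.502 ± 0.110, against a median of 0.286 for all genes, with an SD of 0.63 among lines and 0.62 between replicates. Without the lines DGRP882, DGRP897 and DGRP911 the replicate SD was 0.41 and the heritability 0.670. With the means of sequencing pools removed it was 0.342 in larvae and 0.835 in adults. Pool means of Acsf2 ran from 5.19 to 6.50 log2 CPM over 12 larval pools and from 5.59 to 6.16 over 7 adult pools. The pools held different lines, so these means, and the values with them removed, also carry line differences.

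**Figure D2:**
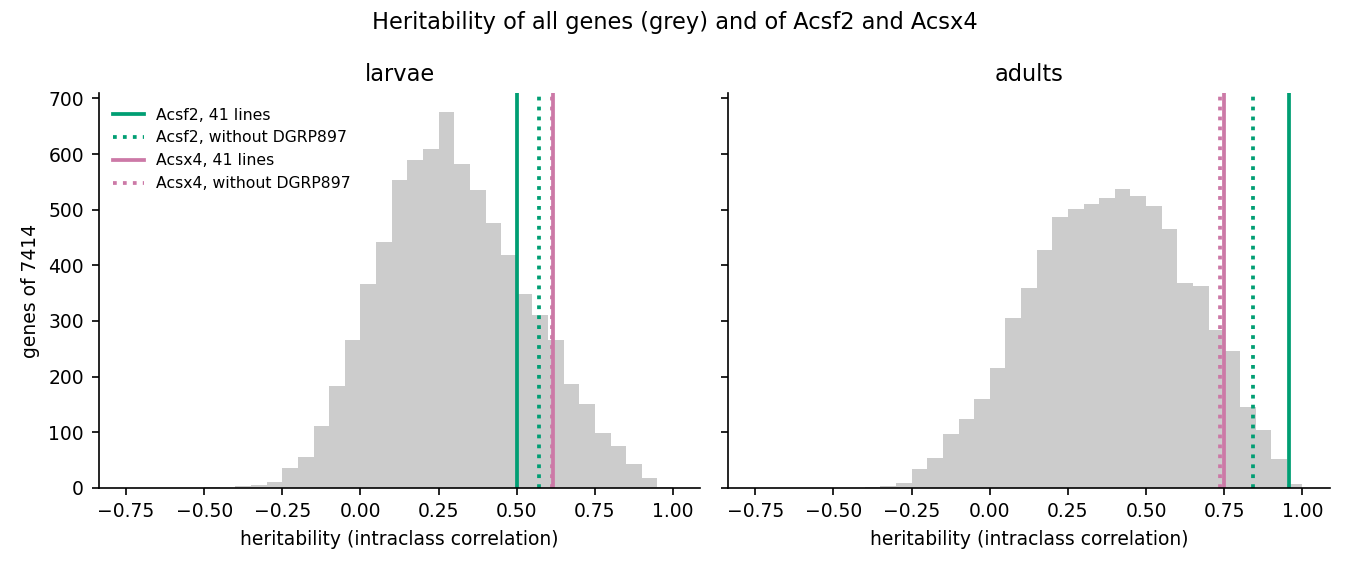
Heritability of all genes and of both synthetase genes. The horizontal axis is the intraclass correlation of replicates within lines, the vertical axis counts genes, solid lines are the values over 41 lines and dotted lines those without DGRP897. Acsf2 moves from 0.956 to 0.843 in adults when DGRP897 is left out, and Acsx4 from 0.749 to 0.736.

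Acsx4 had no such outlying line. Its adult line means spanned 3.72-fold, with DGRP356 lowest at 7.06 and 6.56 CPM and DGRP535 highest at 24.5 and 24.7. DGRP158 followed at 22.7 and 21.9 CPM, and the replicates of DGRP535, DGRP158 and the next line, DGRP897, did not overlap. These were 2 of 40 neighbour pairs in the adult order, and the rest overlapped. Larval line means spanned 3.30-fold, with DGRP149 lowest at 32.3 and 34.8 CPM and DGRP235 highest at 79.7 and 98.9. DGRP149 lay below its neighbour DGRP315 in both replicates, and 3 of 40 neighbour pairs were separate. The other pairs were DGRP882 below DGRP491 and DGRP774 below DGRP787. DGRP491 and DGRP787 each had a larval library left out as identical, so these pairs do not compare replicates on both sides. The median fold between replicates was 1.18 in larvae and 1.17 in adults. Its heritability was 0.616 ± 0.115 in larvae and 0.749 ± 0.079 in adults, in the 89.9th and 92.4th percentile of all genes, and 0.498 and 0.739 with pool means removed. Without DGRP882, DGRP897 and DGRP911 it was 0.608 and 0.732. The SD among lines was 0.29 log2 in larvae and 0.40 in adults, with replicate SDs of 0.23 at both stages.

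**Figure D3:**
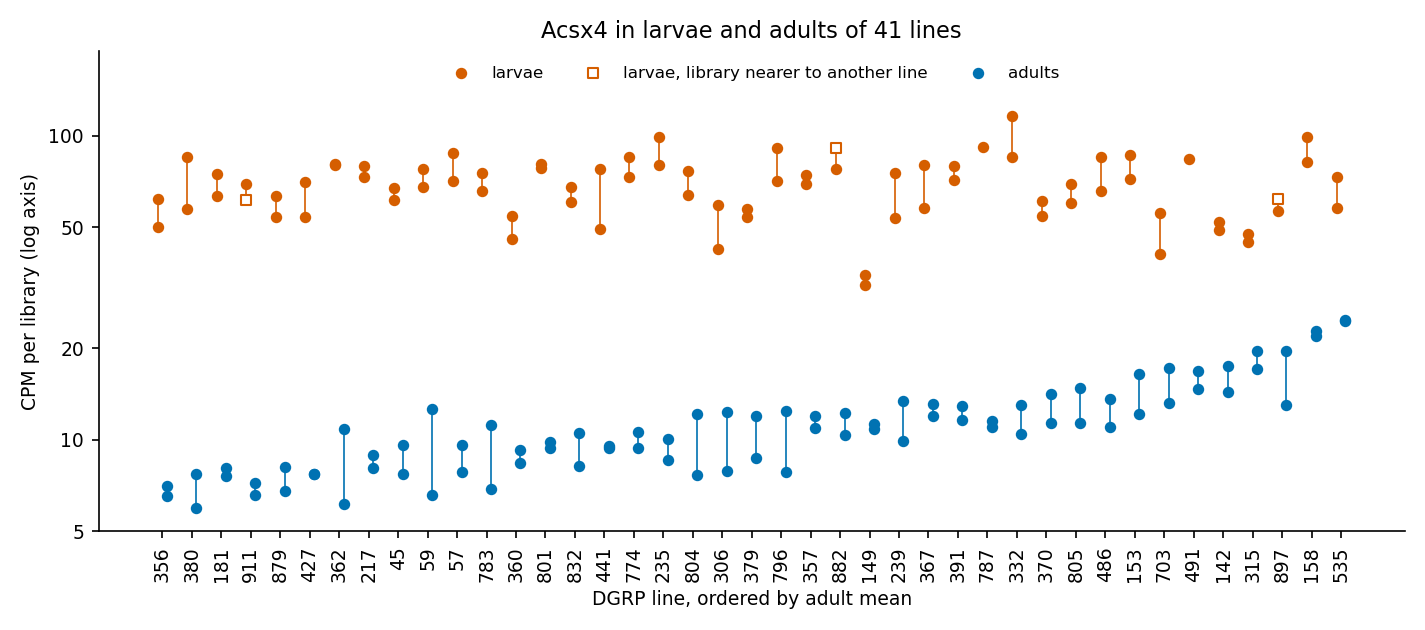
Acsx4 by library. The vertical axis is CPM on a log scale, the horizontal axis is the 41 lines in order of their adult mean, points are libraries (orange larvae, blue adults) and lines join replicates. Open squares are the 3 larval replicate 2 libraries that matched the adults of another line. All larval points, from 32.3 CPM up, lie above all adult points, which end at 24.7 CPM.

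The rank of a line in larvae carried over to adults in part for Acsf2, to a degree that depended on DGRP897, on the replicate and on the 3 libraries that matched other lines, and not measurably for Acsx4. For Acsf2, the larval and adult line means had an r of 0.474 ± 0.165 (jackknife SE, 41 lines; rho 0.388), above 87.6% of all genes, whose median was 0.194. Without DGRP897 it was 0.347 (rho 0.347), above 74.5% of genes. It was 0.453 without DGRP882, DGRP897 and DGRP911, and 0.452 without the pair of lines farthest from the larval median, DGRP897 and DGRP911. Without the 3 libraries alone, all lines kept, it was 0.713 (rho 0.420), above 97.2% of genes, and without DGRP897 as well it was 0.434, above 83.7%. From replicate 1 alone it was 0.620, above 97.3% of genes. From replicate 2 alone it was 0.201, above 56.6% of genes and near their median of 0.167. The 3 libraries that matched other lines are all replicate 2, so the replicate and these libraries are not separate here. For Acsx4, r was -0.029 ± 0.154 over 41 lines (rho 0.020), 0.0019 without DGRP897, and 0.012 without DGRP149 and DGRP235, whose larval means lay farthest out. DGRP535, the highest line in adults, had a larval mean of 6.09 log2 CPM, below the median line of 6.23. DGRP158, the second highest in adults, was the third highest in larvae (6.67). DGRP149, the lowest in larvae, was above the median in adults (3.43 against 3.29). These values are descriptions over lines that share library preparation and pools within a stage.

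**Figure D4:**
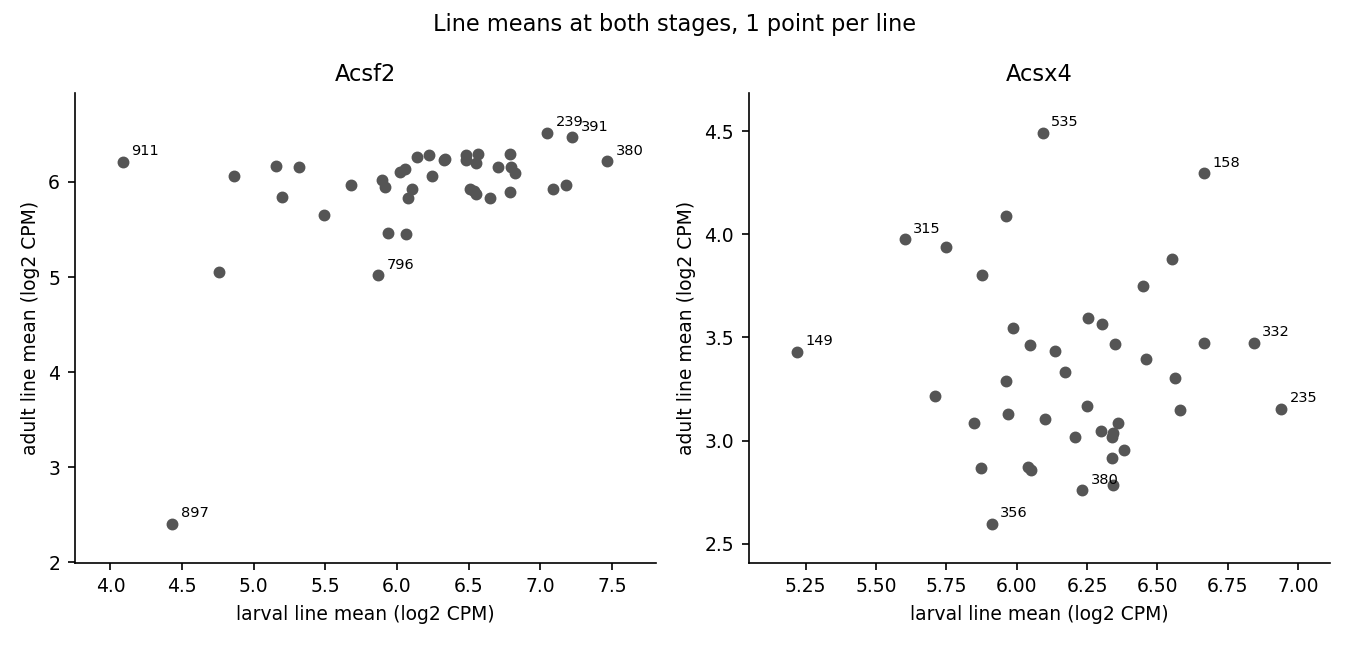
Larval against adult line means of Acsf2 and Acsx4. Each point is a line, both axes are log2 CPM averaged over its replicates, and lines at the ends of either axis are numbered. DGRP897 sits apart at 2.41 in adults for Acsf2, and the Acsx4 points show no slope (r -0.029).

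The 2 genes did not follow each other across lines. Their r was -0.070 in larvae, -0.055 without the 3 libraries, and -0.264 in adults, and -0.044 in adults without DGRP897. The genes most like Acsf2 in adults were Prx3, a mitochondrial peroxiredoxin gene (r 0.832), the splicing factor gene snf (0.726) and CG31229 (0.705), over 41 lines. DGRP897 was the lowest line for each of these 3 genes, and without it their r with Acsf2 was 0.276, 0.402 and 0.343. Over the other 40 lines the highest were Lipt2 (0.640), CG9886 (0.561) and CG31821 (0.553). In larvae the most alike were Prx3 (0.584), stck (0.533) and CG15073 (0.519), and without DGRP897 they were CG6984, CG5381 and Stat92E, from 0.503 to 0.536. Without the 3 libraries r was 0.628 for Prx3, 0.588 for stck and 0.408 for CG15073, and the third highest was GstT1 (0.518). For Acsx4 they were Whamy (0.721), CG18635 (0.715) and CG9555 (0.701) in larvae, and without the 3 libraries their r was 0.707, 0.684 and 0.685. In adults they were CG18577 (0.536), CG8839 (0.497) and the innexin gene Inx7 (0.496). These genes were picked as the highest of all genes in the table, and their r is a description.

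Genes next to Acsf2 were not low as it was in DGRP897. Within 20000 bases the table held fusl, cype and Ncoa6. In adults DGRP897 differed from the median line by 0.01 log2 for fusl and by 0.49 for the coactivator gene Ncoa6, where it was the highest line. It differed by -0.57 for the cytochrome c oxidase subunit gene cype, where it was the second lowest line, against the difference of 12.7-fold for Acsf2. In larvae the 3 neighbours differed by -0.05 to -0.01 in this line. From its replicate 1 alone they differed by -0.40 for fusl, -0.24 for Ncoa6 and 0.28 for cype. Around Acsx4 the table held the glutamate-gated chloride channel gene GluClalpha and the FGF gene bnl. Their r with Acsx4 was -0.390 and 0.318 in larvae and -0.215 and 0.109 in adults.

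Among other genes that activate fatty acids, per kilobase of exon, Acsx4 stood lowest in adults and Acsf2 held the same rank in both stages. The list of these enzymes and of fatty acid transport proteins had 7 of 8 members in the table. One of them, AcCoAS, makes acetyl-CoA rather than a fatty acyl-CoA. In mean CPM per kilobase, Acsx4 (37.3 ± 8.42) and Acsf2 (36.3 ± 17.0) were 5th and 6th of 9 in larvae, below AcCoAS (203), the very-long-chain synthetase gene bgm (103), the long-chain synthetase gene Acsl (76.8) and pdgy (60.6). In adults Acsf2 (34.2 ± 8.83) was 6th and Acsx4 (6.23 ± 2.26) the lowest of the 9, after Fatp2 (27.7). The errors are SDs over 80 larval and 82 adult libraries. Of the 9 genes Acsf2 had the highest heritability in adults, the measure it was chosen for.

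The wider acyl-CoA pathway moved between stages in both directions, and of the 34 listed genes in the table FASN2, Fatp2 and Acbp5 were those with a larger absolute change than Acsx4. Beside the counts that follow, 47.8% of all genes passed as higher in larvae and 44.9% as higher in adults, so that nearly every gene passed in one direction. Of the activation and transport list, 3 of 7 passed as higher in adults and the other 4 as higher in larvae. Acsl was at 1.00 ± 0.05 on the log2 scale and AcCoAS at -0.19 ± 0.06, while Fatp1, higher in adults, had mean levels of 105 CPM in larvae and 353 in adults. Fatp3, pdgy and AcCoAS changed sign without TMM factors, which left 1 of 7 higher in larvae. Of the acyl-CoA binding protein genes, 3 of 3 in the table were higher in larvae, with Acbp5 at -3.07 ± 0.09, Acbp2 at -0.46 ± 0.07 and Acbp1 at -1.05 ± 0.04, and 4 other listed members were not analysed here. Of mitochondrial beta-oxidation genes, 10 of 12 passed as higher in larvae. The 2 higher in adults were whd, the carnitine palmitoyltransferase gene of fatty acid entry, and the carrier gene colt. The thiolase gene yip2 was at -1.38 ± 0.04, the medium-chain dehydrogenase gene Mcad at -0.37 ± 0.05 and the electron transfer flavoprotein gene wal at -0.78 ± 0.04. Of peroxisomal genes, 4 of 5 were higher in larvae, with Mfe2 at -0.81 ± 0.05 and ScpX at -0.91 ± 0.04, and the catalase gene Cat was higher in adults (0.18 ± 0.05). Of fatty acid synthesis genes, 7 of 7 were higher in adults, with Desat1, a desaturase gene, at 0.20 ± 0.05, FASN1 at 0.81 ± 0.07 and the acetyl-CoA carboxylase gene ACC at 1.63 ± 0.07. The errors are SEs from edgeR, and counts use its adjusted p over all genes. The median log2 fold change was -0.19, -1.05, -0.75, -0.86 and 1.09 for the 5 lists in this order, beside -0.03 for all genes.

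**Figure D5:**
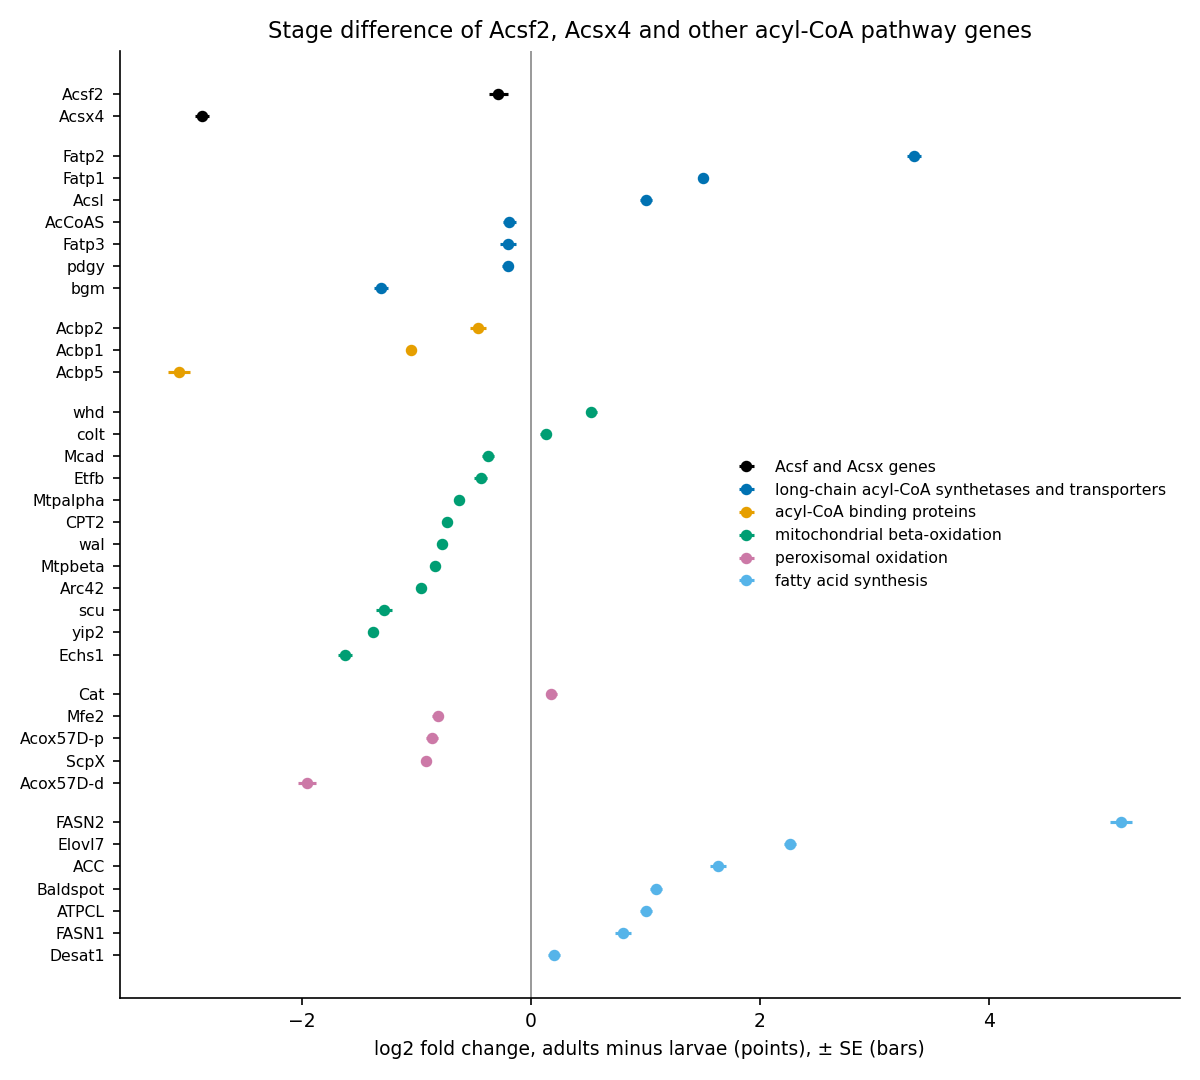
Stage difference of Acsf2, Acsx4 and the listed acyl-CoA pathway genes. The horizontal axis is the log2 fold change, adults minus larvae, with SE bars, and each row is a gene coloured by list. Acsx4 sits at -2.87, beside Acbp5 at -3.07, Acsf2 at -0.28 lies near 0, and fatty acid synthesis genes lie to the right of 0.

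Across lines the r of the listed genes with Acsf2 ran from -0.309 (ScpX) to 0.310 (Elovl7) over 34 genes in larvae (median 0.0012). In adults it ran from -0.456 (whd) to 0.645 (Acbp1), with a median of -0.057. Without the 3 libraries the larval range was from -0.285 (ATPCL) to 0.157 (CPT2), with a median of -0.043. Without DGRP897 the highest in adults was 0.361 (Etfb) and r for Acbp1 was 0.265. With Acsx4 it ran from -0.377 (Fatp3) to 0.466 (bgm) in larvae, with a median of 0.138, and Acsl (0.459), Mfe2 (0.434) and Fatp1 (0.394) were also near the upper end. Without the 3 libraries the larval r of these genes with Acsx4 was -0.347 for Fatp3, 0.403 for bgm, 0.436 for Acsl, 0.437 for Mfe2 and 0.387 for Fatp1. In adults it ran from -0.171 (Acbp1) to 0.406 (Mcad), with a median of 0.176.

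Markers of several tissues moved with stage. The summed CPM of 2 of 3 oenocyte markers ran from 87.9 to 650.3 in larvae and from 18221 to 45088 in adults, and that of 3 of 4 testis markers from 8.94 to 712 and from 1731 to 9074. For 5 of 5 midgut markers it ran from 14476 to 65668 in larvae and from 4664 to 22871 in adults. For 2 of 7 fat body markers (apolpp and Ilp6) it ran from 2071 to 11117 and from 1360.3 to 7151, and for 3 of 3 Malpighian tubule markers from 137 to 1022 and from 230.1 to 747. For 3 of 4 muscle markers it ran from 4329 to 18791 and from 2992 to 10592, for 3 of 3 nervous system markers from 65.9 to 361 and from 383 to 916, and for roX1, a male dosage compensation RNA, from 42.0 to 726 and from 317 to 1495. The 4 yolk and ovary markers were not analysed here. The lowest count of any gene in any library of the table was 11, so no marker in it could be at 0. Across larval lines, r of Acsx4 was -0.491 with the fat body sum and -0.460 with the tubule sum, and -0.478 and -0.460 without the 3 libraries. For the other marker sums in larvae it lay between -0.193 and 0.259, and in adults between -0.305 and 0.281. For Acsf2 r with marker sums lay between -0.121 and 0.192 in larvae (-0.168 to 0.107 without the 3 libraries) and between -0.281 (roX1) and 0.291 (testis) in adults. Without DGRP897 the adult values for roX1 and testis were -0.103 and -0.113, so the testis value turned in sign, and all adult values lay between -0.145 and 0.155. With log2 library totals, r of either gene lay between -0.063 and 0.201. The part of tissue composition in these values was not tested.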

How the data were processed

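The authors deposited raw gene counts for 7414 genes in 164 libraries, from stranded polyA libraries per the labels' protocols. Per the submitters' processing notes, FastQC, Trimmomatic and STAR were used, with no version given, on BDGP6 or dm6. The counter is not given in the sources used here. Symbols were found for 7349 identifiers, and positions come from Ensembl release 115 (BDGP6, dm6 coordinates). The members, lists and tests were chosen with earlier results of these data known, and all members are named.

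The stage difference was fitted over the whole table with TMM factors and the quasi-likelihood F test of edgeR 4.0.16 (R 4.3.3), with line as a block, Benjamini-Hochberg adjustment over all genes and a threshold of 0.05. SEs were taken from the F statistic. A filter of 1 CPM in 41 libraries of a stage removed 0 genes, as did 5 CPM. DESeq2 1.42.0 and limma 3.58.1 served as alternatives. Fold changes include the factors, while CPM values are of the library total, over the genes of the table. Line values are log2 CPM with TMM factors and a prior count of 2, averaged over replicates. Heritability is the one-way intraclass correlation. For each gene the 3 with the highest r of line means were named, and from each list the 3 with the highest mean CPM. The edgeR fit and the heritability estimate were each run on simulated data with known answers first. Python 3.11.15, numpy 2.4.6, scipy 1.17.1 and pandas 2.3.3 were used. Replicate numbers were not treated as pairing larvae with adults. Over 39 lines the correlation of their replicate differences across genes ran from -0.371 to 0.304, with a median of 0.049. It was over 0.1 in 14 lines and under -0.1 in 5, so these values do not settle whether the numbers pair.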

Additional observations from a re-analysis of the deposited data

Results flagged for a closer look

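For Acsf2, larval and adult libraries did not overlap within some lines, with adults above larvae in some of these lines and below in others. With TMM factors, in 7 lines (DGRP306, DGRP362, DGRP486, DGRP57, DGRP783, DGRP832 and DGRP911) every adult library lay above every larval one, and in 23 lines every adult library lay below. On plain CPM, without factors, the 7 are among 12 lines that lay above, and 14 of the 23 lay below, while DGRP181, DGRP774 and DGRP801 of the 23 lay above. At least 7 lines on each side, with TMM factors, were seen for 6.58% of all genes. The difference between these lines was not tested, since the gene was chosen for its line values, and with at most 2 libraries a stage in a line the counts do not show it. DGRP911 includes the replicate 2 library that matched the adults of DGRP897, and its replicate 1, at 48.7 CPM, also lay below its adults.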

How the results depend on the processing

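The stage difference of Acsx4 kept its direction and its call in each alternative run. That of Acsf2 was no longer called with total counts and no factors (-0.025), an alternative chosen after seeing the data, and with pools as replicates (-0.11), and ranged from -0.254 without replicate 1, where it was not called, to -0.252 without replicate 2, where it was (adjusted p 0.0316 in edgeR). With a replicate block for each line and replicate number it was -0.25 (adjusted p 0.0072) and for Acsx4 -2.87, and the block changed neither call. Heritability of Acsf2 in adults was 0.835 with pool means removed and 0.843 without DGRP897, and in larvae 0.342 with pool means removed and 0.670 without DGRP882, DGRP897 and DGRP911. That of Acsx4 in larvae was 0.498 with pool means removed. Cross-stage r ranged from 0.201 without replicate 1 to 0.620 without replicate 2 for Acsf2, and from -0.110 to -0.073 for Acsx4. The run without replicate 1 holds all 3 larval libraries that matched other lines. Without these 3 libraries, tried after seeing the data, cross-stage r was 0.713 for Acsf2. Without factors, 1 of the activation and transport genes was higher in larvae instead of 4, and for Acsf2 all adult libraries lay above all larval ones in 12 lines instead of 7 and below them in 14 instead of 23, the last compared after seeing the data. The causes were not tested. Over both genes together, the stage call was kept in 21 recomputed fits and lost in 3, and each loss was of Acsf2. The 21 include the fits with no filter and with 5 CPM. These removed 0 genes and so repeat the main fit and its counts. Of r and heritability values, 34 moved by less than the jackknife SE and 8 by more. That SE comes from leaving out each line in turn, DGRP897 among them. The 8 count adult Acsf2 heritability without DGRP897 both by its name and as the line farthest from the median. Of counts, which have no error, 55 stayed within 1.5 times and 3 did not, and those within include the lines with a higher Acsf2 mean in adults, which went from 14 to 21 without factors. Tests of line differences and of the interaction, and their alternatives, were not run, since both genes may have been chosen for their line values. Heritability needs both replicates, so it has no value from 1 of them. The lowest counts, 29 per library, limit the precision of Acsf2 in DGRP897.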

Other observations

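Among the listed pathway genes, those of the peroxisomal acyl-CoA oxidases Acox57D-p and Acox57D-d had heritabilities of 0.924 and 0.922 in adults, close to that of Acsf2, and 0.781 and 0.296 in larvae. They were singled out after their values were seen.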
